A study of Mus musculus with 2 samples.

Results

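Among Kupffer barcodes of early liver lesions, 134 of 1839 held at least 1 Cd207 UMI and no Fabp7 UMI (7.29%, Clopper-Pearson 95% interval 6.14 to 8.57). They were chosen from the counts. A barcode, the tag of 1 droplet, was kept with 1000 or more UMIs (distinct RNA molecules counted), 300 or more genes and a mitochondrial share of up to 25%. It was called Kupffer when Alb was below 0.5% of its UMIs and Clec4f, Vsig4, Cd5l and Marco summed to at least 3 UMIs and to more than Gpnmb, Mmp12, Itgax and H2-M2. Members also had fewer than 4 UMIs of Rgn, Pck1, Hpd, Agxt, Oat and Mat1a, 6 hepatocyte genes. The 134 members were 5.44% of the 2461 kept barcodes of the early library, and the series had 2673 kept barcodes in all.

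Livers came from a mouse model of hepatocellular carcinoma in which floxed alleles of the Rb family (genes Rb1, Rbl1 and Rbl2) are removed by Cre, and YFP-positive cells were sorted. YFP is read here as a mark of Cre activity, and it does not show that the Rb family alleles were recombined. The labels do not name the Cre driver, the strain or the age of the mice, and both libraries carry this genotype, with no treatment. Early lesions were 1 library pooled from 3 mice, with 3221 barcodes and 12637053 UMIs, and macroscopic lesions were 1 other library. No barcode was assigned to a mouse and no stage had a second library, so no test was made. Every interval covers counting error only. No Kupffer barcode can be followed to a deletion: members had 3 Rb1 UMIs, 0 Rbl1 UMIs and 5 Rbl2 UMIs at equal depth, and reads at the 3' end of a transcript do not show whether an upstream deletion occurred.

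Kupffer cells are the resident macrophages of the liver sinusoids, where they clear bacteria, aged red cells and debris from the blood. Cd207 encodes langerin, a C-type lectin that binds mannose-type sugars and is best known for forming Birbeck granules in Langerhans cells of the skin. Clec4f, another C-type lectin, is a marker of mouse Kupffer cells, and Fabp7 is a fatty acid binding protein. MHC class II molecules present peptides from engulfed material to CD4+ T cells, with Cd74 as the chaperone that guides them through the cell.

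Cd207 (ENSMUSG00000034783, chromosome 6, 83671215 to 83677857, minus strand, GRCm38) lies beside Clec4f (ENSMUSG00000014542, chromosome 6, 83644542 to 83656187, minus strand). The genes are 15027 bases apart, with 0 annotated genes between them. The 250 bases upstream of each RefSeq start (GRCm38.p6) are shown, because both lectins mark these barcodes. Capitals mark the core motif of the macrophage factor PU.1, GAGGAA or its reverse complement TTCCTC, searched on both strands.
Cd207, chr6:83677858-83678107, minus strand: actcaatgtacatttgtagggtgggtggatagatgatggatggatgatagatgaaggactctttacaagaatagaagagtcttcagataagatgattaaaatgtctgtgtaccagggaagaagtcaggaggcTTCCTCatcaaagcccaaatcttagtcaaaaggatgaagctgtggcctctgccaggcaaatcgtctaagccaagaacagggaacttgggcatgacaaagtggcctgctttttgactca
Clec4f, chr6:83656117-83656366, minus strand: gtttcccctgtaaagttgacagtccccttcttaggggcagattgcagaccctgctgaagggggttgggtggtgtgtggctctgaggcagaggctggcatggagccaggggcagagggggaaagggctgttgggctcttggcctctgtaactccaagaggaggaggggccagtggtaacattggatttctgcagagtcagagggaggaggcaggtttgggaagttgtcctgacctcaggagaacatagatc
The Cd207 window held 1 match and the Clec4f window 0. Of all 32851 promoters in the table, 23.3% held this motif in the same window.

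The members carried the Kupffer genes that the rule did not use. Each barcode was thinned to 1000 UMIs by random draws, since members were shallower (median 2071 UMIs) than all other Kupffer barcodes (median 2677 UMIs). Levels are given in CPM, the usual scaling of a gene's UMIs by the summed UMIs of its group. Folr2, a folate receptor of resident macrophages, stood at 619 CPM (493 to 768) in members and 704 CPM (665 to 745) in all other Kupffer barcodes. Timd4, a receptor for dying cells, had 246 CPM (170 to 346) in members and 289 CPM (264 to 315) in the others. Adgre1, which encodes F4/80, had 761 CPM (621 to 924) in members and 679 CPM (641 to 719) in the others. These intervals overlapped in all 3 genes. By group, Folr2 in members had a ratio of 0.73 (0.57 to 0.92) over barcodes with Cd207 and Fabp7, which were deeper (median 3950.0 UMIs). Over barcodes with neither gene its ratio was 1.25 (0.95 to 1.63). Of 20 Kupffer identity genes outside the rule, 20 were measured (at least 50 CPM in 1 sum and at least 30 UMIs in both), 0 were at least 2-fold higher and 1 was at least 2-fold lower, where 4.08% and 3.45% of all 3503 measured genes were. That gene, Slc16a9, had 6 UMIs in members and 185 in the others, a ratio of 0.41 (0.15 to 0.92) that was 0.82 with equal weight. Their median log2 ratio was 0.07 (95% interval of the median -0.07 to 0.16), against 0.06 over all measured genes.

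The genes of the rule are given as a description. At equal depth members had 4336 CPM of Clec4f (3990 to 4703) and all other Kupffer barcodes 3829 CPM (3737 to 3923). Vsig4, a complement receptor, had 3343 CPM in members and 3114 CPM in the others, and Cd5l, a secreted scavenger protein, 8440.3 CPM in members and 7755 CPM in the others. Marco, a scavenger receptor, had 2716 CPM in members, 2792 CPM in barcodes with Cd207 and Fabp7, 3562 CPM with Fabp7 only and 3847 CPM with neither.

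**Figure D1:**
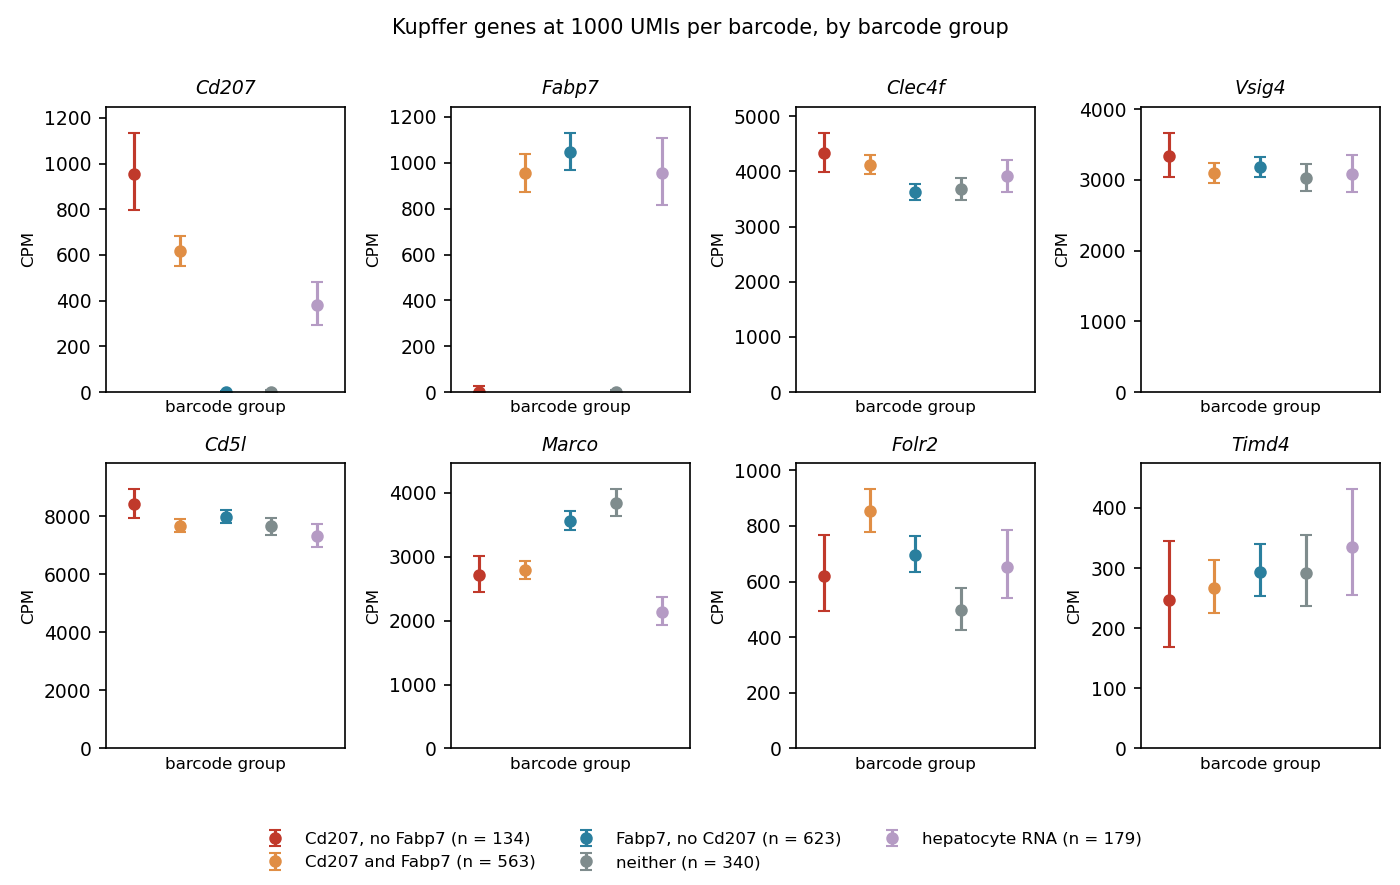
Level of 8 Kupffer genes in 5 groups of Kupffer barcodes, in CPM after thinning each barcode to 1000 UMIs (points, bars are exact Poisson 95% intervals, n is the number of barcodes). Cd207 and Fabp7 define the groups; Clec4f stands at 4336 CPM in Cd207 barcodes without Fabp7 and 3676 CPM in barcodes with neither gene.

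The other 1705 Kupffer barcodes held 4 groups. There were 563 with Cd207 and Fabp7, 623 with Fabp7 only, 340 with neither, and 179 at or above the hepatocyte RNA limit. Depth followed these groups: the median was 2071 UMIs in members, 3950.0 with Cd207 and Fabp7, 2497 with Fabp7 only and 1630.0 with neither. The median mitochondrial share was 10.1% in members, 8.10% with Cd207 and Fabp7, 8.56% with Fabp7 only and 9.90% with neither. Their median Malat1 share, a nuclear RNA, was 0.649%, against 0.496% to 0.589% in the other groups. Whether depth or RNA quality had a part in the results below was not tested.

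At equal depth the share of barcodes with Cd207 was nearly the same with and without Fabp7. A Cd207 UMI was present in 48.5% of Kupffer barcodes with Fabp7 (45.8 to 51.3) and in 29.2% of those without (25.3 to 33.4) before thinning. After thinning to 1000 UMIs these shares were 22.7% (19.8 to 25.7, 186 of 821) and 22.7% (20.2 to 25.4, 231 of 1018). Cd207 varied between Kupffer barcodes somewhat more than Poisson counting would give, with a variance 1.33 times the mean and 77.3% of barcodes at 0, where Poisson counting gives 74.4%. Marco varied far more, with a variance 5.25 times its mean.

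Many members sat close to the limits of the rule. Their 323 Cd207 UMIs were spread as 1 UMI in 67 members, 2 UMIs in 32 and 3 UMIs in 14, and the highest member had 20. Barcodes just outside for having 1 Fabp7 UMI numbered 137, with a mean Cd207 level of 779 CPM. Members with 1 Cd207 UMI averaged 541 CPM of Cd207 and those with 2 or more 1354 CPM. There were 14 members with 3 hepatocyte UMIs, and 5 barcodes with 4 were otherwise alike.

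Cd207 was at or near 0 in cells that should lack it. In Kupffer barcodes the share with a Cd207 UMI was 43.2% (41.0 to 45.5) at a median of 2627 UMIs. Of T or NK barcodes 0 of 76 had a Cd207 UMI, which allows a share of up to 3.95% by a limit of 3 counts (Clopper-Pearson upper bound 4.74%), at a median of 2628.5 UMIs. Of neutrophil barcodes 0 of 42 had one, which allows up to 7.14% by the same limit (Clopper-Pearson upper bound 8.41%). Among 116 cholangiocyte barcodes, which were deeper (median 10814 UMIs), 1.72% had one (0.21 to 6.09).

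MHC class II genes were higher in members than in all other Kupffer barcodes. The invariant chain gene Cd74 had 5029.85 CPM (4657 to 5424) in members and 3748 CPM (3656 to 3841) in the others, a ratio of 1.34 (1.24 to 1.45). H2-Aa, the alpha chain of the I-A molecule, had 2231 CPM (1986 to 2499) in members and 1482 CPM (1425 to 1541) in the others, a ratio of 1.51 (1.33 to 1.70). H2-Ab1, its beta chain, had 2537 CPM (2275 to 2822) in members and 1918 CPM (1853 to 1985) in the others, a ratio of 1.32 (1.18 to 1.48). With each barcode weighted equally and no thinning these ratios were 1.40, 1.40 and 1.42, and in unthinned sums 1.78, 1.92 and 1.80. In the unthinned sums 1 member of 20579 UMIs held 1504 of the members' 5982 UMIs of class II genes. The peptide-loading genes pointed the same way with wider intervals: H2-DMa had a ratio of 1.29 (0.94 to 1.73) and H2-DMb1 of 1.37 (0.997 to 1.84). Of 11 MHC class II genes 6 were measured, 0 passed 2-fold either way (4.08% of all 3503 measured genes did upward and 3.45% downward), and 6 of 6 had a ratio above 1, with a median log2 ratio of 0.44 (0.37 to 0.92). MHC class I genes, present on nearly all cells, had a median log2 ratio of 0.06 over 9 measured genes.

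Class II genes stood higher in both groups with Cd207 than in the groups without it. Cd74 stood at 5029.85 CPM in members, 5330.4 CPM in barcodes with Cd207 and Fabp7, 2865 CPM with Fabp7 only and 2724 CPM with neither. Members over barcodes with neither gave a ratio of 1.85 (1.67 to 2.04), and barcodes with both genes over those with Fabp7 only gave 1.86 (1.75 to 1.97). Between members and barcodes with both genes the ratio was 0.94 (0.87 to 1.03) over all depths. Those groups differed in depth (medians of 2071 and 3950.0 UMIs), and the ratios within ranges of depth are given below. H2-Aa gave 1.69 (1.46 to 1.96), 1.71 (1.56 to 1.88) and 1.13 (0.99 to 1.28) in the same 3 comparisons. For H2-Ab1 they were 1.40 (1.23 to 1.60), 1.70 (1.57 to 1.85) and 0.99 (0.88 to 1.12).

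Apoe was higher in both groups with Cd207 as well. Apoe, an apolipoprotein that helps carry lipids out of macrophages, had 12866 CPM in members, 12881 CPM with Cd207 and Fabp7, 10156 CPM with Fabp7 only and 10121 CPM with neither. Over all depths, members over barcodes with neither gave 1.27 (1.20 to 1.35), and both genes over Fabp7 only 1.27 (1.23 to 1.31). Csf1r, the receptor for the growth factor that macrophages need, had ratios of 1.47 (1.23 to 1.75) in members over neither and 1.19 (1.07 to 1.32) in both genes over Fabp7 only. It was not compared within ranges of depth. The list of macrophage lineage factors and growth factor receptors had a ratio of 1.03 (0.96 to 1.10) in members over neither. In all barcodes with Cd207 over those without, the list had 0.96 (0.93 to 0.996).

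**Figure D2:**
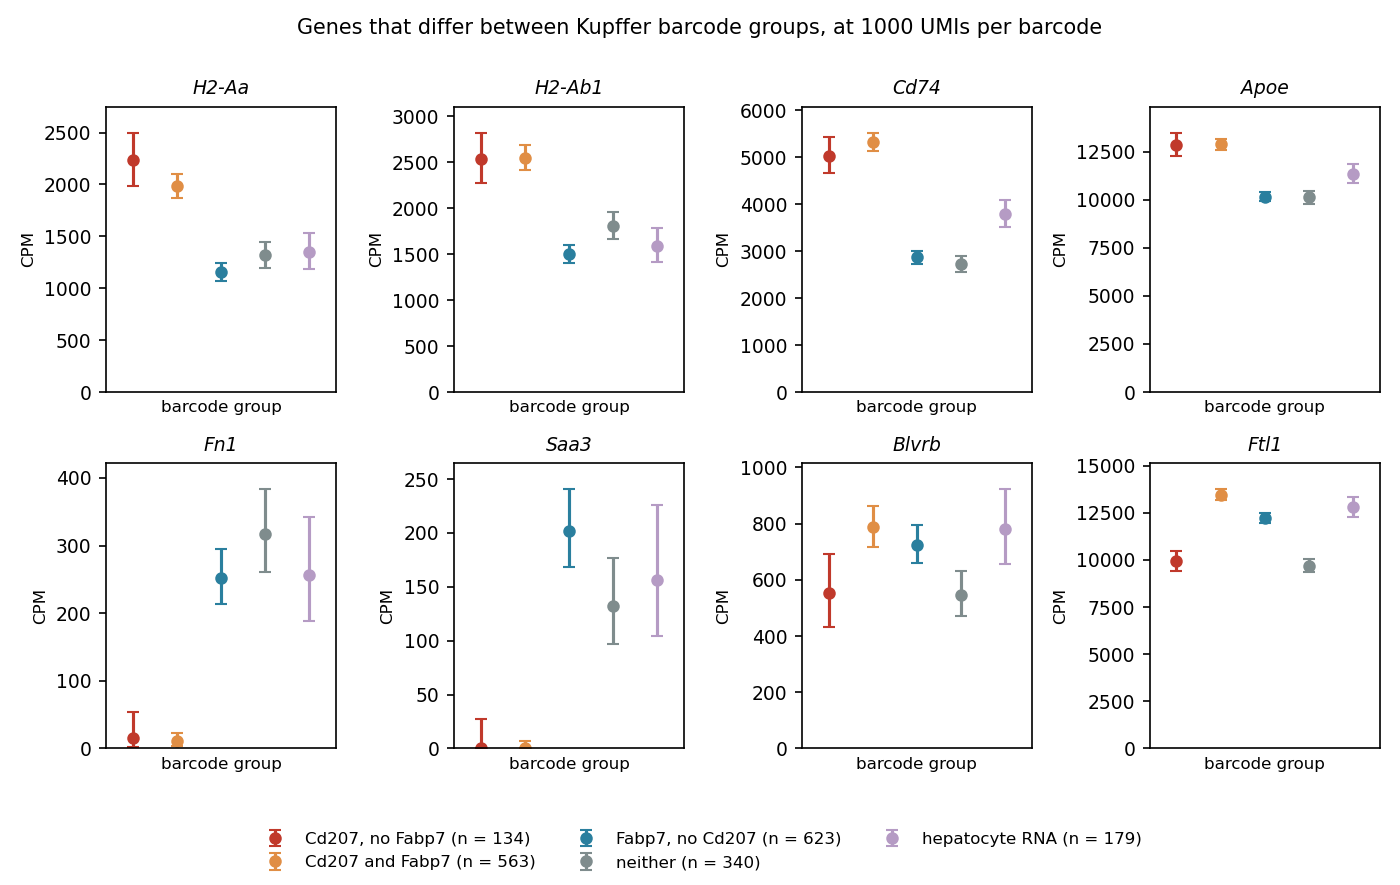
Level of 8 genes in 5 groups of Kupffer barcodes, in CPM after thinning each barcode to 1000 UMIs (points, bars are exact Poisson 95% intervals, n is the number of barcodes). H2-Aa, H2-Ab1, Cd74 and Apoe stand higher in both groups with Cd207, Fn1 and Saa3 near 0 there, and Blvrb and Ftl1 are low in both groups without Fabp7 (members and neither).

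The spread between barcodes was wide. Summed over H2-Aa, H2-Ab1 and Cd74, the median was 6 UMIs per member at 1000 UMIs (quartiles 3 and 13, highest 60), against 4 per barcode in all others (quartiles 2 and 9, highest 71). Of members 22 had 20 or more such UMIs, or 16.4% (10.6 to 23.8), against 7.86% of all others (6.63 to 9.24). Barcodes with Cd207 and Fabp7 had 14.2% (11.4 to 17.4), those with Fabp7 only 3.69% (2.35 to 5.49) and those with neither 5.29% (3.17 to 8.24). Of members 12 had none, or 8.96% (4.71 to 15.1), against 10.1% of all others. In Cd74 the variance was 5.38 times the mean over all Kupffer barcodes, so Poisson intervals understate the error of its sums.

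**Figure D3:**
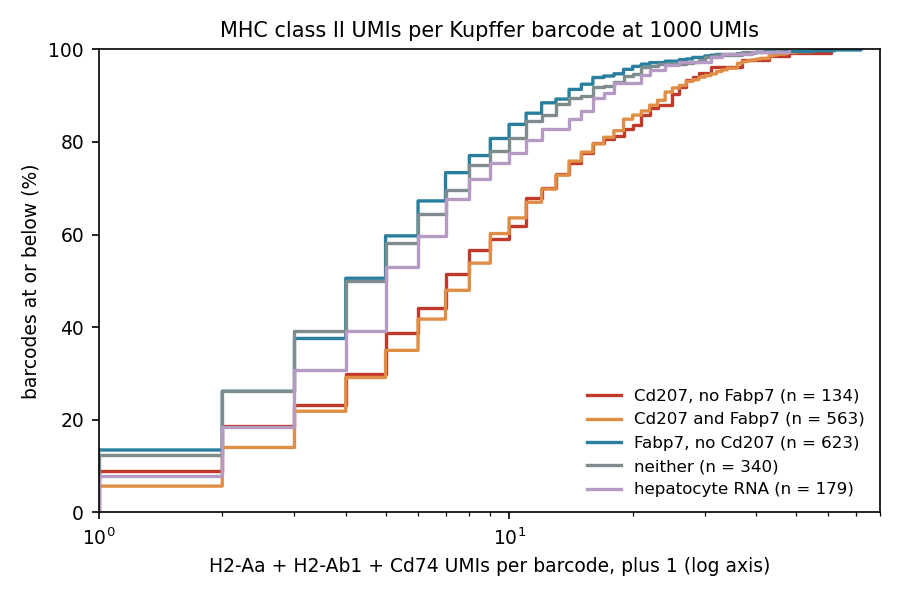
Cumulative share of Kupffer barcodes (percent) by their summed H2-Aa, H2-Ab1 and Cd74 UMIs plus 1, on a log axis, after thinning to 1000 UMIs, 1 line per barcode group. The lines of both groups with Cd207 lie to the right of the groups with Fabp7 only and with neither, with medians of 6 and 7 UMIs against 3 and 3.5.

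The size of this difference varied with depth. In 62 members below 2000 UMIs the 3 genes summed to 6661 CPM (6034 to 7336), against 4992 CPM (4710.5 to 5285) in 236 barcodes with neither gene, a ratio of 1.33 (1.19 to 1.49). From 2000 to below 4000 UMIs the levels were 8860 CPM in 57 members and 7893 CPM in 84 barcodes with neither, a ratio of 1.12 (0.998 to 1.26). There H2-Aa had a ratio of 1.0 (0.77 to 1.29) and H2-Ab1 of 0.92 (0.74 to 1.15), while Cd74 had 1.32 (1.12 to 1.56). At 4000 or more UMIs they were 26333 CPM in 15 members and 7400.0 CPM in 20 barcodes with neither, a ratio of 3.56 (2.94 to 4.33). The 20 stood apart: Clec4f was at 4600 CPM in the 15 members and 1350 CPM, with a median of 0 UMIs, in the 20. Fn1 was at 66.7 CPM in the 15 members and 2050 CPM in the 20, and Saa3 at 0 CPM in the members and 1900 CPM in the 20. Those 15 members were 11.2% of members and held 30.1% of the members' 1313 UMIs of these genes. Below 4000 UMIs members had 7714 CPM and all other Kupffer barcodes 5868 CPM, a ratio of 1.31 (1.23 to 1.41), close to the 1.37 (1.29 to 1.45) over all depths. Against Fabp7 only, the ratio stood at 1.69, 1.51 and 3.49 from the shallow to the deep range. Against barcodes with Cd207 and Fabp7 it was 0.998 (0.88 to 1.13), 1.07 (0.97 to 1.19) and 2.19 (1.97 to 2.43). In the deep range this last comparison set 15 members beside 278 barcodes.

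In members over neither, Apoe had ratios of 1.24 (1.13 to 1.35), 1.22 (1.10 to 1.34) and 0.88 (0.75 to 1.02) in the 3 ranges. Its direction turned in the deep range, against the 20 barcodes with little Clec4f. Both genes over Fabp7 only gave 1.34 (1.24 to 1.45), 1.12 (1.06 to 1.19) and 1.06 (1.004 to 1.12), a smaller difference above 2000 UMIs. Members over barcodes with both genes gave 1.02 (0.93 to 1.13), 1.18 (1.09 to 1.29) and 1.28 (1.13 to 1.45), so their like Apoe levels over all depths did not hold above 2000 UMIs.

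**Figure D4:**
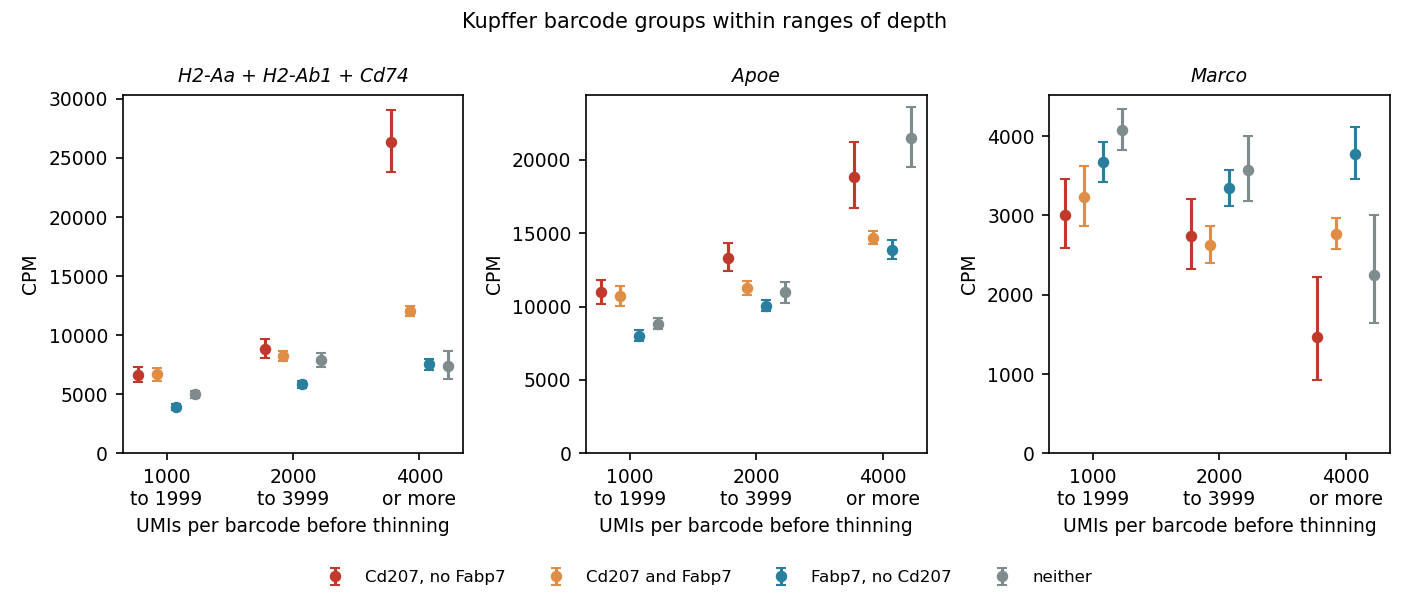
Level in CPM of the summed H2-Aa, H2-Ab1 and Cd74 (left), Apoe (middle) and Marco (right) in 4 groups of Kupffer barcodes, within 3 ranges of UMIs per barcode, after thinning to 1000 UMIs (bars are exact Poisson 95% intervals). The class II sum of Cd207 barcodes without Fabp7 reaches 26333 CPM in the deep range and stays at 8860 CPM or less in the others; Marco is a gene of the rule.

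Within the members, class II genes differed by depth. The 72 members of 2000 or more UMIs had 6528 CPM of Cd74 and 2986 CPM of H2-Aa, and the 62 shallower members had 3290 and 1355 CPM. Cd207 itself was at 833 CPM in the deeper members and 1097 CPM in the shallower ones. These Cd207 values are a description: the rule asks for 1 UMI at any depth, so the lowest share a member can have is higher at lower depth. A split by the Cd207 UMIs that chose the members is a description: Cd74 was at 6836 CPM with 2 or more (median 2477 UMIs) and 3224 CPM with 1 (median 1927 UMIs).

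The 22 members with 20 or more class II UMIs kept the Kupffer lectin. They had 4273 CPM of Clec4f, against 4348 CPM in the other 112 members, 23000 and 10875 CPM of Apoe, 6136 and 8893 CPM of Cd5l, and 1182 and 3018 CPM of Marco. Lyz2, the lysozyme gene of myeloid cells, had 8136 and 3384 CPM. The 20 Kupffer identity genes summed to 12091 and 12929 CPM. As these barcodes were picked by their class II UMIs, this is a description.

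The H2-Aa and H2-DMb1 promoters are shown because both genes belong to the class II group that stood higher. Capitals mark the Y box core of class II promoters, TGATTGG or its reverse complement CCAATCA, searched on both strands in the 250 bases upstream of the RefSeq start (GRCm38.p6).
H2-Aa, chr17:34287824-34288073, minus strand: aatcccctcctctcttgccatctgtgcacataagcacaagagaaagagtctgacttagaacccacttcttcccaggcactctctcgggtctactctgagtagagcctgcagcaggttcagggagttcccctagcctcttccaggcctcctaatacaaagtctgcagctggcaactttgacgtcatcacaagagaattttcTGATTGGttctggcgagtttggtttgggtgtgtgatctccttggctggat
H2-DMb1, chr17:34152941-34153190, plus strand: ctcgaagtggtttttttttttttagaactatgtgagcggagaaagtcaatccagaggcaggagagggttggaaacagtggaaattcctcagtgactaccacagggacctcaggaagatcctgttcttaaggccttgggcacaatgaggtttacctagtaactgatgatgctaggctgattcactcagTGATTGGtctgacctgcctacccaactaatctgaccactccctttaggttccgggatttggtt
Each window held 1 match, as did the windows of H2-Eb1 and of Fabp7, while those of Cd207, Clec4f and H2-DMa, which has more than 1 entry, held 0. The motif was present in 7.23% of all promoters of that RefSeq set.

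Across all genes, few differences of 2-fold were stable at this depth. Over all other Kupffer barcodes, members had 143 genes past 2-fold upward (4.08% of 3503 measured) and 121 past 2-fold downward (3.45%). Over barcodes with Cd207 and Fabp7 the counts were 84 (2.59% of 3237) and 157 (4.85%), over Fabp7 only 67 (2.04% of 3284) and 142 (4.32%), and over neither 25 (1.01% of 2472) and 77 (3.11%). All 697 barcodes with Cd207, set over those without (both below the hepatocyte RNA limit), had 9 (0.28% of 3219) and 17 (0.528%). The median higher gene rested on 9 UMIs in members. With equal weight per barcode 29 of the 143 and 18 of the 121 were still past 2-fold, and the mean over 20 random draws gave 29 higher and 44 lower genes. Among the 15 genes with the highest lower bound of the ratio, 6 stayed past 2-fold with equal weight: Mospd1, Elac1, Kat2a, Epn2, Ktn1 and Bag4. These held 8 to 11 UMIs each in members. Kat2a, a histone acetyltransferase, had 8 UMIs in members and 26 in the others, a ratio of 3.92 (1.53 to 8.90) that was 2.49 with equal weight and 2.34 in unthinned sums. Epn2, an endocytic adaptor, had 9 UMIs in members and 32 in the others, a ratio of 3.58 (1.50 to 7.67) that was 2.50 with equal weight. The others named by this order were Nxt2, Apobec3, Dst, Ube2q2, Zfp629, Rxra, N4bp2l1, H2-Aa and Mcrs1, whose ratios with equal weight lay between 1.38 and 1.96.

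Rxra and Cdkn1b stood on more UMIs than most genes of that order. Rxra, the partner of the nuclear receptors that Kupffer cells use for lipid control, had 373 CPM (277 to 492) in members and 202 CPM (182 to 225) in the others, a ratio of 1.84 (1.34 to 2.49). It was 1.38 with equal weight and 1.27 in unthinned sums. Cdkn1b, which encodes the cell cycle inhibitor p27, had 112 CPM (62.7 to 185) in members and 48.7 CPM (38.8 to 60.3) in the others, a ratio of 2.3 (1.23 to 4.01). Its ratio was 2.28 with equal weight and 2.19 in unthinned sums. Within barcodes of 2000 to 6000 UMIs the log2 ratio of Cdkn1b was 0.20. In members 15 UMIs stood behind it.

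Fn1 and Saa3 were nearly missing from members. Fn1, fibronectin, had 2 UMIs in members and 317 in the others at equal depth, a ratio of 0.08 (0.01 to 0.29), and Saa3, an acute phase protein, had 0 and 199, at least 5.21-fold lower against a floor of 3 UMIs. Before thinning, 0 of 134 members had 3 or more Fn1 and Saa3 UMIs together, which allows a share of up to 2.24% by a limit of 3 counts (Clopper-Pearson upper bound 2.72%). In the groups with Cd207 and Fabp7, Fabp7 only and neither, 2 of 563, 20 of 623 and 11 of 340 barcodes did. In all, 37 other barcodes (2.17%, 1.53 to 2.98) held 5892 of the 5945 UMIs of the others. Without these and the globin carriers Fn1 had a log2 ratio of 0.18, so its difference rested on those barcodes. The globins Hbb-bs, Hba-a1 and Hba-a2 each had 1 UMI in members and 848, 193 and 150 in the others, and 3 other barcodes held 5915 of 6009 unthinned globin UMIs. The remaining 10 of the 15 genes with the lowest upper bound were Mrpl13, Tmem192, Fndc3a, Ddx24, Rab8a, Fam49a, Vdac2, Rps27l, Xdh and Cct5. Vdac2, a channel of the outer mitochondrial membrane, had 16 UMIs in members and 437 in the others, a ratio of 0.47 that was 0.65 with equal weight. Tmem192 had 0 UMIs in members and 90 in the others in this draw, but 14 and 293 before thinning, a ratio of 0.83, and it was higher in members when barcodes were thinned to 2000 UMIs.

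Ftl1 and Blvrb were lower in members and in barcodes with neither gene. Ftl1, the ferritin light chain that stores iron, had 9933 CPM in members, 13453 CPM with Cd207 and Fabp7, 12230 CPM with Fabp7 only and 9685 CPM with neither. Blvrb, a reductase of haem breakdown, had 552, 787, 724 and 547 CPM in the same groups, and Gapdh, an enzyme of glycolysis, 410, 709, 576 and 362 CPM. Members and barcodes with neither gene differed by ratios of 1.03 (0.96 to 1.09) in Ftl1, 1.01 (0.76 to 1.33) in Blvrb and 1.13 (0.81 to 1.57) in Gapdh. These groups were also the shallowest, at medians of 2071 and 1630.0 UMIs. In members over Fabp7 only, Ftl1 had ratios of 0.84 (0.76 to 0.92), 0.87 (0.80 to 0.95) and 0.85 (0.74 to 0.98) from the shallow to the deep range. With neither gene it stood at 8780, 11310 and 13550 CPM, and with Fabp7 only at 10207, 11904 and 16164 CPM. In the middle range these levels had overlapping intervals (10602 to 12052 and 11481 to 12339).

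Other gene lists differed from one comparison group to the next. Mitochondrially encoded genes had a median log2 ratio of 0.21 (0.16 to 0.29), with 12 of 12 measured genes above 0, but 0.07 against barcodes with neither gene. Ribosomal protein genes had -0.19 (-0.22 to -0.12), with 30 of 30 below 0, and -0.00 against neither. Lysosome and cathepsin genes, the digestive enzymes of macrophages, stood at 0.09 (-0.00 to 0.14) over 23 genes, complement genes at 0.12 (-0.17 to 0.32) over 12, and scavenger receptors at 0.02 (-0.13 to 0.17) over 17. Interferon-stimulated genes had 0.27 (-0.46 to 0.61) over 14, and lipid handling genes -0.04 (-0.35 to 0.20) over 20. Mitotic genes had 117 UMIs in members and 2291 in the others, a ratio of 0.65 (0.53 to 0.78), with 3 of 24 measured (Hmgb2, Tubb5 and H2afz). Their ratio was 0.87 (0.70 to 1.07) over barcodes with neither gene, and 1.29 (1.19 to 1.41) in all barcodes with Cd207 over those without. G1/S and replication genes had a ratio of 0.72 (0.53 to 0.96) over all other Kupffer barcodes. Lipid-associated and monocyte-derived macrophage genes had 0.86 (0.76 to 0.96) there, and 0.88 (0.77 to 1.01) over neither. Of their 10 genes measured over all other Kupffer barcodes 5 were above 0 and 5 below, with a median log2 ratio of -0.06 (-0.46 to 0.33). Over all measured genes the median was 0.06.

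**Figure D5:**
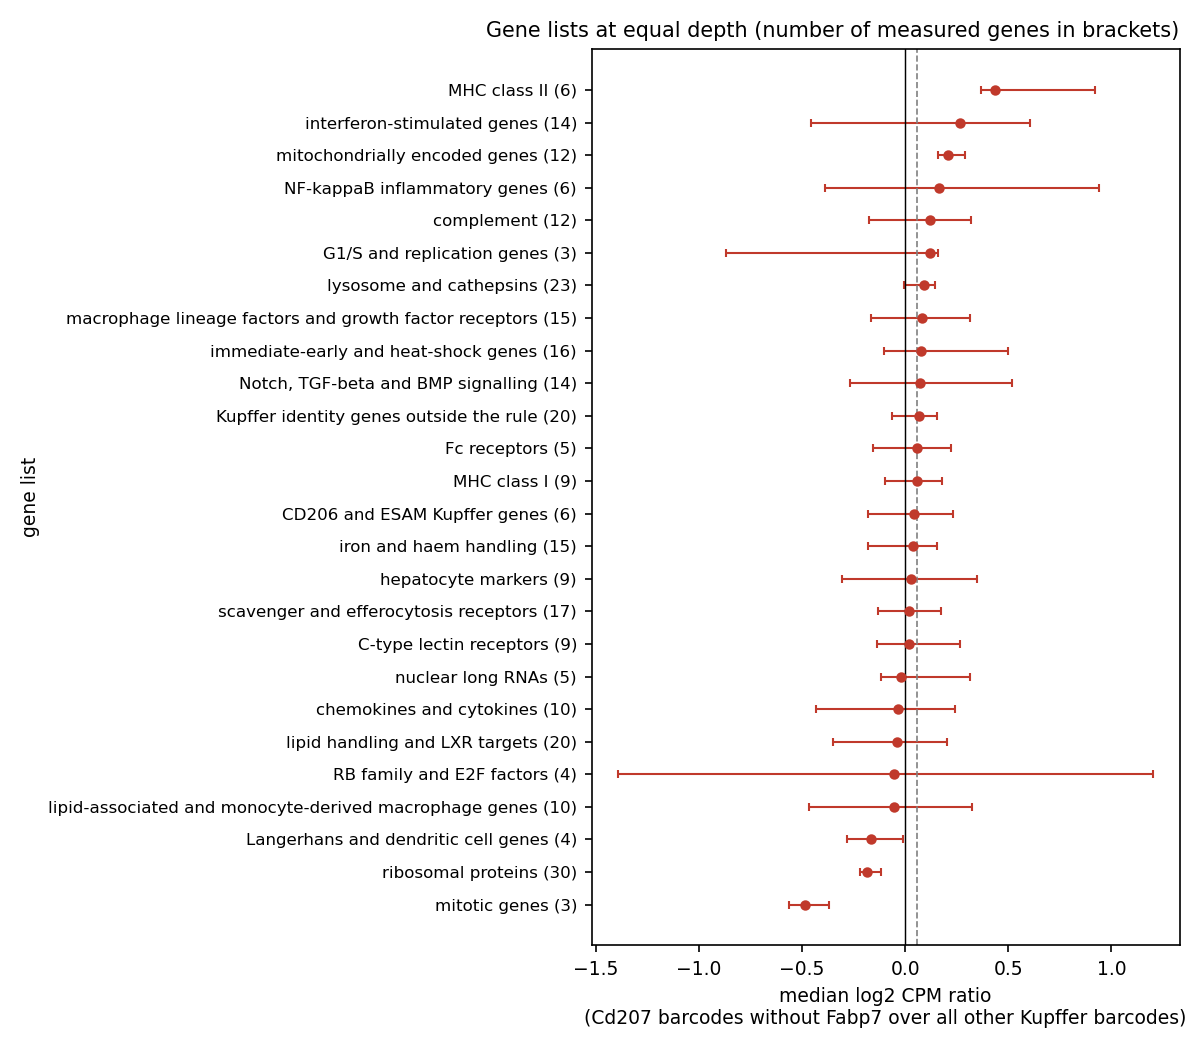
Median log2 CPM ratio, Cd207 barcodes without Fabp7 over all other Kupffer barcodes, of gene lists with at least 3 measured genes (number in brackets). Bars are the order-statistic 95% interval of the median, or the range under 6 genes; the dashed line is the median of all measured genes, and the globin list is left out of the picture (its median is -3.92). MHC class II stands farthest to the right, at 0.44.

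By the share of barcodes with a UMI, the genes most like Cd207 over 1839 Kupffer barcodes of the 1 early library included Cdkn1b, Psmb7, Tmem219, Cuedc2, Kat6a, Ifnar1, Snrk, Treml4 and Cebpzos. Cdkn1b was present in 8.87% of barcodes with a thinned Cd207 UMI (6.32 to 12.0) and 4.15% of those without (3.17 to 5.32), the highest share ratio (2.14) of 2872 genes ranked. Treml4, a receptor for dying cells, was present in 17.5% (14.0 to 21.5) and 10.4% (8.87 to 12.1). All points share 1 library, and at the other end of the order Rnf111 had a share ratio of 0.35, so spreads of this size occur in both directions.

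Markers of other cell types were at 0 in members for some types and measurable for others. The Langerhans and dendritic markers Epcam, Cd24a, Flt3, Zbtb46, Itgae, Xcr1, Clec9a, Ccr7 and Cd209a had 0 UMIs in members after thinning. The marker set also held H2-Aa, with 299 UMIs in members, and Itgax, a gene of the rule. Itgax had 1 UMI in the 22 members with 20 or more class II UMIs and 1 in the other 112. Before thinning members held 4 Ccr7 UMIs, 4 Clec9a UMIs and 1 Itgae UMI, and the others 0, 47 and 2. A separate list of 15 such genes, without H2-Aa and Itgax, summed to 88 UMIs in members and 1315 in the others. Its ratio was 0.85 (0.68 to 1.06), from genes that macrophages also use, such as Irf8 and Id2. T and NK markers had 51 unthinned UMIs in members, 50 of them in 1 barcode of 6624 UMIs, and 28 in the others. Without barcodes of 10 or more such UMIs the class II median log2 ratio was 0.45. Hepatocyte markers were at 985 CPM in members and 974 CPM in the others, which include the 179 barcodes with hepatocyte RNA, a ratio of 1.01 (0.84 to 1.21). Their ratio was 1.53 (1.24 to 1.87) over Cd207 and Fabp7, 1.31 (1.07 to 1.60) over Fabp7 only and 1.03 (0.83 to 1.26) over neither. Sinusoidal endothelium markers were at 321 CPM in members and 238 CPM in the others, a ratio of 1.35 (0.96 to 1.85). Over Cd207 and Fabp7 it was 1.47 (1.01 to 2.09). Before thinning 1 member of 1953 UMIs held 22 of the members' 105 UMIs of these markers, so the ratios rest in part on that barcode. Esam had 0 UMIs in members, and Kdr 0 after thinning and 4 before. B cell markers had 8 and 80 UMIs, neutrophil markers 12 and 160, platelet markers 50 and 660, cholangiocyte markers 4 and 57, and stellate and fibroblast markers 8 and 180, and the ratio interval of each of these 5 lists included 1. The part of the other lists in the class II difference was not tested.

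The macroscopic library gave no member. It had 3 Kupffer barcodes of 1123, 30791 and 41515 UMIs, with 0, 43 and 11 Cd207 UMIs, and both barcodes with Cd207 also held Fabp7 (35 and 44 UMIs). With 0 members of 3 barcodes no comparison between stages was made. No cell barcode was shared by the libraries.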

How the data were processed

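Whole-number UMI counts per gene and barcode were deposited, and the file headers give software version 3.0.2. Per the submitters' processing notes the build was mm10, with Cell Ranger 3.0.2 and Seurat 2.3.0 listed without a role; barcode filtering and the annotation used for counting are not given in the sources used here. From these counts, Kupffer barcodes were thinned to 1000 UMIs (seed 0; none was shallower) and summed. With 1 library per stage no test was made. Python 3.11.15, numpy 2.4.6, scipy 1.17.1 and pandas 2.3.3 gave exact Poisson intervals for CPM, conditional binomial intervals for ratios and Clopper-Pearson intervals for shares, all at 95%. The limit printed beside a share of 0 is 3 counts over the barcodes, and a floor of 3 counts over the sum stood in for 0 (22.4 CPM in members, 1.76 CPM in the others). No pseudocount was used. UMIs are molecules, yet intervals cover counting error only.

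Scrublet (scanpy 1.11.5) called 2 of 2461 barcodes (0.0813%), none of them members; at that share the caller has not worked, and doublets were not removed. Named genes were the 15 measured genes with the highest lower and the 15 with the lowest upper bound of the ratio, up to 4 best expressed genes of each of 34 lists, the markers and the genes of the rule. Blvrb, Gapdh, H2-DMb1, H2-Eb1, Esam, Kdr, Rb1, Rbl1, Rbl2 and the carriers of Fn1, Saa3 and globins were chosen after values were seen. H2-DMa, Ftl1, Cdkn1b, Kat2a, Epn2, Elac1 and Treml4 were also among the genes picked at that point. The members and lists were chosen with earlier results of these data known. Gene positions came from GENCODE M21, matched by identifier for 184 of 184 genes, and promoters from RefSeq. The ratio and its interval were tested on simulated data in which all barcodes of a group shared the same profile. That test does not cover variation between barcodes, which the data show (in Cd74 a variance 5.38 times the mean). Alternatives covered depth, filters, comparison groups, doublets and measurement limits. A gene named by the likeness order is not reported here.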

Additional observations from a re-analysis of the deposited data

Results flagged for a closer look

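A signal appeared in data that the comparisons above do not use. Of 622 kept early barcodes that were not Kupffer, 28 held Cd207 (4.50%, 3.01 to 6.44), with 256 UMIs in all. In the barcodes with more Gpnmb, Mmp12, Itgax and H2-M2 than Kupffer UMIs, 24 of 261 held Cd207 (9.20%, 5.98 to 13.4), with up to 51 UMIs, while T or NK barcodes had 0 of 76. There were 16 non-Kupffer barcodes with 5 or more Cd207 UMIs. At 1000 UMIs per barcode members had 2231 CPM of H2-Aa, 5029.85 CPM of Cd74 and 4336 CPM of Clec4f, and the 16 barcodes had 16938, 39313 and 62.5 CPM. The 16 had 0 UMIs of Epcam, Xcr1, Clec9a, Flt3, Zbtb46, Cd209a and Itgae. At equal depth they had 2 UMIs of Itgax and 14 of H2-M2, both genes of the rule. The list of 15 Langerhans and dendritic genes stood at 625 CPM (300 to 1149) in the 16 and 657 CPM (527 to 809) in members.

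In the macroscopic library the 3 Kupffer barcodes held 54 Cd207 UMIs in all, and none of the 3 was a member.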

How the results depend on the processing

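The 134 members were 72 with barcodes thinned to 2000 UMIs or with at least 2000 UMIs and 500 genes, 65 within 2000 to 6000 UMIs, 67 with at least 2 Cd207 UMIs, 66 with at most 10% mitochondrial UMIs, and 697 with Fabp7 not used. Counts of genes at least 2-fold higher and lower (143 and 121) were 12 and 43 without thinning, 33 and 30 with equal weight, and 25 and 77 against barcodes with neither gene. They were 317 and 264 with at least 2 Cd207 UMIs, 237 and 191 with a Cd207 UMI after thinning, 254 and 257 with at least 2000 UMIs and 500 genes, and 299 and 233 with at most 10% mitochondrial UMIs. Within 2000 to 6000 UMIs 277 were lower. Measured genes at 20 CPM and 10 UMIs gave 574 and 487, at 100 CPM and 100 UMIs 15 and 25, and with no filter 2507 and 688. Of alternatives chosen after seeing the data, Cd207 and Fabp7 barcodes as the others gave 84 higher, Fabp7 not used 9 and 17, and the mean of 20 draws 29 and 44. The cause was not tested.

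Log2 ratios changed sign for Mcrs1 (-0.42), Tmem192 (0.38) and Rab8a (0.54) at 2000 UMIs, Rab8a (0.24) without thinning, Dst (-0.062) with another seed, and Bag4 (-0.44) and Mcrs1 (-0.319) with at least 2 Cd207 UMIs. With alternatives chosen after seeing the data they did so for Fn1 (0.49) against Cd207 and Fabp7 barcodes, Fn1 (0.18), Hba-a1 (1.64) and Hba-a2 (0.83) without carriers, and Dst (-0.16) and N4bp2l1 (-0.24) with Fabp7 not used. The MHC class II median log2 ratio ran between 0.10 against Cd207 and Fabp7 barcodes and 0.87 without thinning. No paired analysis was possible because each stage had 1 library. At 134 members a gene with 0 UMIs may stand at up to 22.4 CPM.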
